A study of Rattus norvegicus with 12 samples.

Results

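The genes described here encode 10 enzymes that remove superoxide and peroxides or repair the damage they leave: Sod1, Sod2, Sod3, Cat, Gpx1, Gpx3, Gpx4, Prdx1, Prdx6 and Msra. They were chosen by symbol from the array's annotation, and 9 of the 10 had a probe set of their own, among 14217 genes on the array in all. The only probe set listed for Prdx1 is listed for its copy Prdx1l1 as well, so no value is given for Prdx1. Gpx4 had a further probe set, and the other 8 measured genes had 1 each.

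Liver RNA was hybridized to 12 Affymetrix rat arrays. Long Evans Cinnamon (LEC) rats inherit a deletion in Atp7b, the copper pump of hepatocytes, and copper builds up in their liver. Hepatitis and later liver tumors follow. Long Evans Agouti (LEA) rats, the related strain without this defect, served as controls. There were 4 arrays of LEC tumor and 4 of adjacent LEC nontumor liver at 67 weeks of age, and every one of them held pooled RNA of 2 tumor and nontumor pairs out of 8. LEC liver at 4, 26 and 39 weeks and LEA liver at 67 weeks were represented by 1 RNA pool and 1 array each. The labels name no agent, all groups other than LEA carry the Atp7b defect, and the labels give all animals as male, kept free of specific pathogens. By this design tumor and nontumor pools share animals. The labels do not say which tumor pool belongs to which nontumor pool, so the main comparison was not paired. Beyond this, they do not say if any animal contributed to several pools. All p-values therefore measure only the spread between these samples, and precision is limited by how few arrays there are.

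Superoxide dismutases turn superoxide into hydrogen peroxide. Catalase, the glutathione peroxidases and the peroxiredoxins then reduce the peroxide, in peroxisomes, cytosol, mitochondria, membranes or plasma according to the enzyme. Liver is among the tissues richest in catalase and Sod1. Free copper feeds the reactions that make these oxidants, and Sod1 and Sod3 are themselves copper enzymes.

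Promoter sequences from RefSeq (GRCr8) covered 7 of the 10 genes, each window running from 250 bases before the annotated start to 50 after it. Sod3, Prdx6 and Msra had no entry. Of these 7 genes, 2 held the core of the antioxidant response element, TGACNNNGC, on either strand, namely Sod2 and Prdx1, and 12.1% of all 33469 promoter windows held it. The Sod2 match lies on the opposite strand and begins 35 bases before the start. The windows of 3 genes are printed, 5′ to 3′ on the strand of the gene: the measured gene with the core (Sod2), the gene with the largest rise in tumor (Gpx3), and the gene with the largest fall among those with an entry (Cat). They lie at chr1:50050119-50050418, minus strand, for Sod2, at chr10:39529085-39529384, plus strand, for Gpx3 and at chr3:110329477-110329776, minus strand, for Cat. Capitals mark TGACNNNGC, the GC box GGGCGG, the CCAAT box and TATAAA on either strand, and these matches do not overlap in the printed windows. GGGCGG occurs in 33.1%, CCAAT in 37.5% and TATAAA in 14.2% of all windows, and such a match is a description of the letters only.
Sod2: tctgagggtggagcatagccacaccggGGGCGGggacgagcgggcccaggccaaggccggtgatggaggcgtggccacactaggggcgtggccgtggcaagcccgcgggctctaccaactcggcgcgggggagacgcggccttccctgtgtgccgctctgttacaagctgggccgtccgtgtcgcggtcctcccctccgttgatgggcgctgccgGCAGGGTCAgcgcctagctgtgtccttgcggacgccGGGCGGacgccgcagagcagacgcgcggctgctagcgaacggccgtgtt
Gpx3: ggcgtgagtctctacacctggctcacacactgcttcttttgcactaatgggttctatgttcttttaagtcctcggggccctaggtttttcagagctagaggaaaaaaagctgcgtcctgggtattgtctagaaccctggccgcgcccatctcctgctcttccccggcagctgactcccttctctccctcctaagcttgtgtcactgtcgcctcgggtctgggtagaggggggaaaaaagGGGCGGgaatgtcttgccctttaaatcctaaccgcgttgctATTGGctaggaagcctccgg
Cat: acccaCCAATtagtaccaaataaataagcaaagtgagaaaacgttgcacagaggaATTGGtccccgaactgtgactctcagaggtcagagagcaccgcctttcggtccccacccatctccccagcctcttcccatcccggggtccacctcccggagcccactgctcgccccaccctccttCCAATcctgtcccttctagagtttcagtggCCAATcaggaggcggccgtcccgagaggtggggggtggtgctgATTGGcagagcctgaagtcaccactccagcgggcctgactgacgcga
The Cat window holds 5 CCAAT matches, while the Gpx3 window holds 1 CCAAT and 1 GGGCGG match.

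Values are log2 expression values made with RMA, so a step of 1 is a 2-fold difference, and levels of different genes are not compared because each probe set has its own scale. Differences are log2 units ± standard error from limma, with p-values adjusted by Benjamini-Hochberg over all probe sets, and a gene is called at an adjusted p under 0.05. Array medians lay between 7.39 and 7.51. The lowest value of any measured enzyme was 6.66, above the highest value, 6.22, of 27 control probe sets for bacterial RNA. Atp7b lay at 9.17 in LEA and between 8.27 and 8.64 on the LEC arrays, and was lower in nontumor LEC than in LEA (-0.58 ± 0.10, adjusted p = 0.0469, limma). The arrays labelled 26 and 39 weeks stood apart on 2 sex-linked genes. The RNA Xist, made in female cells, lay at 5.27 and 5.67 there and between 11.36 and 13.12 on the other arrays, while the Y-linked Eif2s3y lay at 8.90 and 8.18 there and between 3.65 and 3.81 on the others. The other 10 arrays thus go against the label male on these genes, tumor, nontumor and LEA arrays alike. Values from these arrays are therefore those of the libraries labelled 26 and 39 weeks, and a difference of age cannot be told apart from this one.

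The tissue differed in its cell markers as well, and their counts stand beside 38.8% of all genes that rose and 29.2% that fell in tumor. Of 11 measured hepatocyte markers 9 fell in tumor, all 7 bile duct markers and all 9 stellate and matrix markers rose, and 4 of 5 red blood cell markers fell. Endothelial markers rose in 3 and fell in 3 of 7, macrophage markers rose in 2 and fell in 3 of 7, neutrophil markers rose in 3 of 5, and T, B and NK cell markers rose in 3 and fell in 3 of 9. Of 9 markers of kidney, lung, fat and muscle 1 rose and 4 fell, and 3 of them (Slc12a1, Mb, Myh7) stayed within the range of the bacterial controls on all arrays, as did Camp of the neutrophil list. On the log2 scale of their summed signal, the hepatocyte markers ranged from 17.05 to 17.25 in nontumor and from 14.37 to 16.78 in tumor liver. The bile duct markers ranged from 10.82 to 12.35 in nontumor and from 14.87 to 15.14 in tumor liver, and the matrix markers from 12.00 to 12.48 and from 14.34 to 14.99. Red blood cell markers ranged from 12.55 to 13.13 in nontumor and from 11.81 to 12.97 in tumor liver. In pooled tissue RNA, fewer cells of a type and less RNA per cell cannot be told apart, and the part of cell composition in the results below was not tested.

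Tumor was compared with nontumor liver of the same age to find which of these enzymes differ in the tumors. Of the 9 measured enzymes, 2 rose (Gpx3 and Sod3, the secreted peroxidase and the secreted dismutase) and 5 fell (Msra, Cat, Sod1, Gpx1 and Gpx4), while Sod2 and Prdx6 were not called. Over all 14217 genes, 67.9% were called, 38.8% higher and 29.2% lower. This balance turned with the scaling, from 5511 higher and 4147 lower to 4380 and 4826 after quantile normalization again, and to 4840 and 5191 with array medians subtracted. The tumor and nontumor arrays did not overlap for 7 of the 9 enzymes, beside 63.8% of all genes, so a difference between these tissues was the rule on this array and the count of called enzymes is read against it. The median difference of the 9 was -0.40, and that of all genes was 0.07. Quantile normalization applied again moved the median of all genes by -0.10, and the 7 called enzymes kept their direction and their call after it.

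**Figure D1:**
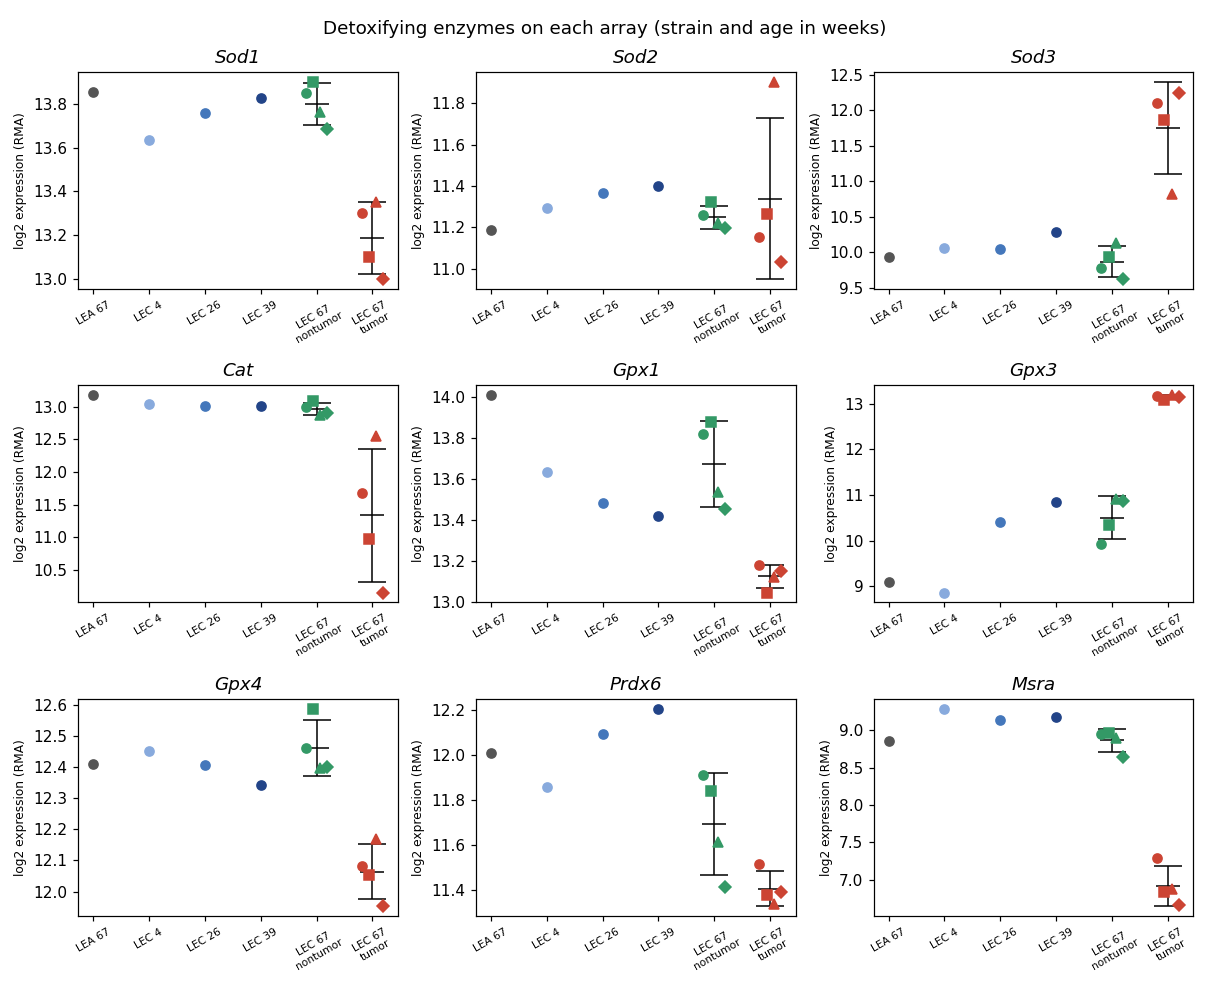
Log2 expression (RMA) of each measured enzyme on every array, with strain and age in weeks on the x axis; each vertical axis has its own range. Points are arrays, with circle, square, triangle and diamond for arrays 1 to 4, and bars give the mean ± SD of the 4 nontumor and 4 tumor arrays. Gpx3 reads 13.08 to 13.18 on the tumor arrays and at most 10.91 on all others, and Cat spreads from 10.16 to 12.55 among the tumor arrays.

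Among the dismutases, the 3 genes went different ways. Sod1, the copper and zinc enzyme of the cytosol, read 13.85, 13.90, 13.76 and 13.68 on nontumor arrays 1 to 4 and 13.30, 13.10, 13.35 and 13.00 on tumor arrays 1 to 4. All tumor arrays lay below all nontumor arrays, by a gap of 0.34, and Sod1 fell (-0.61 ± 0.10, 1.53-fold, adjusted p = 7.0e-04, limma). On the lone arrays it read 13.85 in LEA and 13.64, 13.76 and 13.82 in LEC at 4, 26 and 39 weeks. Outside the tumors Sod1 thus kept within 13.64 and 13.90.

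Sod2, the manganese enzyme of mitochondria, read 11.26, 11.32, 11.22 and 11.20 on the nontumor arrays. The tumor arrays read 11.16, 11.26, 11.90 and 11.03, with array 3 above all other arrays of the study and the rest within or below the nontumor range. The difference was 0.09 ± 0.17 (adjusted p = 0.662, limma), and it turned to -0.10 without tumor array 3 and to -0.04 after quantile normalization again. LEA read 11.19 and the LEC pools 11.29, 11.37 and 11.40 in order of age, so outside the tumors Sod2 kept between 11.19 and 11.40. On tumor array 3 the median of the neutrophil markers was 8.24, and on the other tumor arrays it lay between 7.03 and 7.11. Other cell markers set this array apart as well. Its summed signal was the highest of the tumors for hepatocyte, matrix, endothelial, macrophage and red blood cell markers, and the lowest for bile duct markers. The part of any of these in the Sod2 value was not tested.

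Sod3, which is secreted and binds to the extracellular matrix, read 9.77, 9.93, 10.13 and 9.62 on the nontumor arrays and 12.10, 11.86, 10.82 and 12.25 on the tumor arrays. Tumor array 3 was the lowest of the tumors and still stood 0.68 above the highest nontumor array. Sod3 rose by 1.89 ± 0.29 (3.71-fold, adjusted p = 5.4e-04, limma), and by 2.21 without tumor array 3. LEA at 9.94 and the LEC pools at 10.06, 10.04 and 10.28 all lay below the tumors, the library labelled 39 weeks nearest to tumor array 3 (10.82). Tumor array 3 thus had the least Sod3 and the most Sod2 of the tumors.

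Catalase (Cat), the peroxisomal enzyme that splits hydrogen peroxide, varied more among the tumor arrays than any other of the 9 genes. It read 13.00, 13.08, 12.87 and 12.91 on the nontumor arrays, 13.17 in LEA and 13.04, 13.00 and 13.01 in LEC at 4, 26 and 39 weeks. The tumor arrays read 11.68, 10.97, 12.55 and 10.16, with an SD of 1.02 beside 0.10 in nontumor liver. Cat fell by 1.62 ± 0.43 (3.08-fold, adjusted p = 0.00935, limma), and the difference was -2.03 without tumor array 3 and -1.23 without tumor array 4. Its order among the tumor arrays, 3 highest, then 1, 2 and 4, was shared by 10 of 11 hepatocyte markers, by Sod1 and Gpx4, and by 6.97% of all genes. Apob, the hepatocyte lipoprotein, read 12.48, 11.39, 13.15 and 8.64 on tumor arrays 1 to 4 and between 13.71 and 13.82 in nontumor liver. Cat therefore stood lowest where the hepatocyte markers stood lowest, and the part of hepatocyte content in its fall was not tested.

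**Figure D2:**
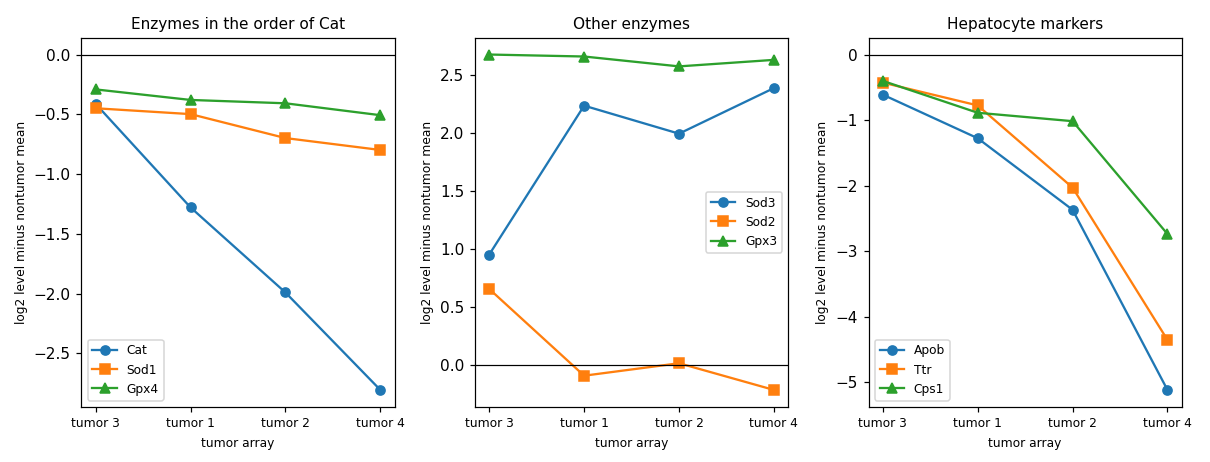
Log2 level on each tumor array minus the mean of the 4 nontumor arrays, with tumor arrays ordered by their Cat value. The left panel shows Cat, Sod1 and Gpx4, the middle panel Sod3, Sod2 and Gpx3, and the right panel the hepatocyte markers Apob, Ttr and Cps1; the vertical ranges differ. Cat and the hepatocyte markers descend from tumor array 3 to tumor array 4, and Gpx3 stays nearly level, at 13.08 to 13.18 before subtraction.

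The glutathione peroxidases Gpx1, Gpx3 and Gpx4, all selenium enzymes, changed in opposite directions. Gpx1, the main peroxidase of the cytosol, read 13.82, 13.88, 13.53 and 13.45 on the nontumor arrays and 13.18, 13.05, 13.12 and 13.15 on the tumor arrays. Gpx1 fell (-0.55 ± 0.11, 1.46-fold, adjusted p = 0.00205, limma), with all tumor arrays below all others. LEA had the highest value of the 12 arrays, 14.01, and the LEC pools read 13.64, 13.48 and 13.42 at 4, 26 and 39 weeks. Nontumor arrays 3 and 4 lay beside the libraries labelled 26 and 39 weeks, and nontumor arrays 1 and 2 lay between these and LEA.

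Gpx4, which reduces lipid peroxides within membranes, read 12.46, 12.59, 12.40 and 12.40 in nontumor liver and 12.08, 12.05, 12.17 and 11.95 in tumor. It fell by the smallest amount of the called enzymes (-0.40 ± 0.08, 1.32-fold, adjusted p = 0.00211, limma). LEA read 12.41 and the LEC pools 12.45, 12.40 and 12.34. The further probe set of Gpx4 was much dimmer, at 7.71 ± 0.16 (SD, n = 4) in nontumor and 7.56 ± 0.13 (SD, n = 4) in tumor liver, and was not called (-0.15 ± 0.10, adjusted p = 0.224, limma).

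Gpx3, the peroxidase secreted into plasma, rose most. It read 9.92, 10.35, 10.91 and 10.86 on the nontumor arrays and 13.17, 13.08, 13.18 and 13.14 on the tumor arrays. The tumor arrays agreed to an SD of 0.04, stood 2.18 above the highest nontumor array and differed from nontumor liver by 2.63 ± 0.20 (6.21-fold, adjusted p = 1.3e-05, limma). Gpx3 also spread widely over the arrays outside the tumors. LEA read 9.09 and LEC at 4 weeks 8.87, while the libraries labelled 26 and 39 weeks read 10.42 and 10.86. The LEA and 4 week arrays were thus the lowest of the 12, and all later LEC arrays lay at least at 9.92.

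Prdx6, a peroxiredoxin that also acts on phospholipids, read 11.91, 11.84, 11.61 and 11.41 in nontumor liver and 11.52, 11.38, 11.34 and 11.39 in tumor. The groups overlapped through nontumor array 4, and the difference of -0.29 ± 0.11 missed the threshold (adjusted p = 0.0508, limma). It passed the threshold in 6 alternatives, among them at -0.38 without nontumor array 4 and at -0.39 after quantile normalization again or subtraction of the array medians. The highest values of the study were 12.10 and 12.21 on the libraries labelled 26 and 39 weeks, beside 12.01 in LEA and 11.86 in LEC at 4 weeks.

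Msra repairs oxidized methionine in proteins. It read 8.95, 8.96, 8.90 and 8.64 on the nontumor arrays and 7.29, 6.84, 6.88 and 6.66 on the tumor arrays. Msra fell by 1.95 ± 0.14 (3.86-fold, adjusted p = 9.7e-06, limma), the largest fall of the 9, with a gap of 1.35 between the groups. All tumor values lay below the lowest array median (7.39), and at so dim a signal the size of this fall is less exact. LEA read 8.85 and the LEC pools 9.29, 9.14 and 9.18. Tumor array 1 was the highest tumor for Msra, unlike Cat, for which it was tumor array 3.

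**Figure D3:**
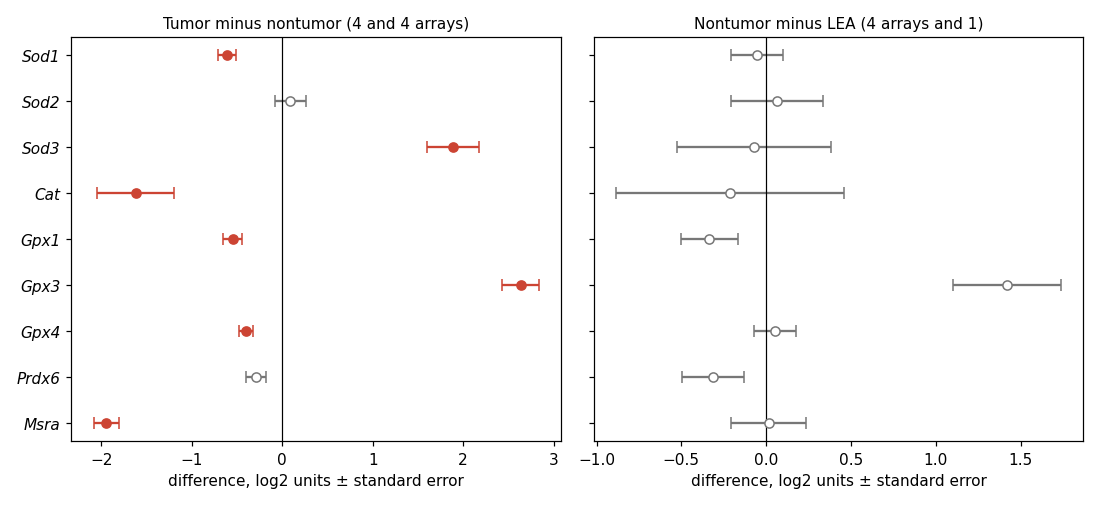
Difference in log2 units ± standard error for each enzyme, tumor minus nontumor on the left and nontumor minus LEA on the right, with separate horizontal ranges. Filled red points have an adjusted p under 0.05 in limma and open points do not; in the left panel Gpx3 stands at 2.63 and Msra at -1.95, and in the right panel Gpx3 stands at 1.42 with no point filled.

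Nontumor LEC liver was compared with LEA liver of the same age to see what the strain and its disease change apart from the tumor. The LEA group is a single array, assumed to vary like the replicated groups. None of the 9 enzymes was called by limma, beside 0.563% of all genes, and 1 of 9 (Gpx3) had an unadjusted p under 0.05, beside 12.4% of all genes. Gpx3 was 1.42 ± 0.32 higher in nontumor LEC liver (higher on 4 of 4 arrays, adjusted p = 0.117, limma). Of 144 alternatives over the 9 enzymes, 1 gained a call, that of Gpx3 without nontumor array 1. This array was the lowest of its group for Gpx3, so leaving it out must enlarge the difference, here to 1.62 ± 0.21. For the other enzymes the differences ranged from -0.34 ± 0.17 for Gpx1 and -0.31 ± 0.18 for Prdx6 to 0.06 ± 0.27 for Sod2. Standard errors of 0.67 for Cat and 0.45 for Sod3 come from the spread among the tumor arrays, which this fit shares. The LEA array lay outside the nontumor range for 5 of the 9 enzymes, beside 48.8% of all genes: above it for Cat, Gpx1 and Prdx6 and below it for Sod2 and Gpx3. This comparison and that of tumor with nontumor share the nontumor arrays.

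The LEC pools of different age were compared for differences apart from the tumors, with 1 array an age and no test. The libraries labelled 26 and 39 weeks also differ from the 4 week array on the sex-linked genes, and age cannot be told apart from this. Between 4 and 26 weeks 1 of the 9 enzymes, Gpx3, differed past 2-fold (1.55 higher), beside 3.13% of all genes, 2.57% higher and 0.563% lower. Between 4 and 39 weeks it was again 1, Gpx3 (1.99 higher), beside 3.06% of all genes, 2.51% higher and 0.549% lower. Past 1.5-fold it was still Gpx3 alone at both ages, beside 8.74% of all genes at 26 weeks and 8.7% at 39 weeks. Both comparisons share the 4 week array. The other 8 differed by 0.35 or less, with Prdx6 (0.24 and 0.35 higher) at the upper end and Gpx1 (-0.15 and -0.22) at the lower. The libraries labelled 26 and 39 weeks lay outside the range of the 67 week nontumor arrays for 3 and 6 of the 9 enzymes, beside 47.8% and 45.6% of all genes, and were above it for Sod2, Prdx6 and Msra in both cases. The 4 week array lay outside it for 3 of the 9, beside 48.9%, above it for Msra and below it for Sod1 and Gpx3. Red blood cell markers had a summed log2 signal of 11.29 and 11.83 on the libraries labelled 26 and 39 weeks, beside 12.66 at 4 weeks. That of the bile duct markers was 12.20 and 11.98 there, beside 10.69 at 4 weeks and 10.20 in LEA. These markers did not move alike. The keratin Krt19 read 8.55 and 8.81 there beside 6.54 at 4 weeks and 6.21 in LEA. The keratin Krt7 read 6.48 and 6.75 beside 6.67 and 6.49. The part of these in the Gpx3 difference was not tested.

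Across the 12 arrays the enzymes sorted into those that are high where the tumors are and those that are low there. These correlations describe 12 arrays that share the split into tumor and other liver, and carry no p. Sod1 went with Gpx4 (r = 0.949), Msra (r = 0.934) and Cat (r = 0.933), while Sod3 ran against Gpx4 (r = -0.939) and Cat (r = -0.927). Sod3 and Gpx3 had r = 0.845. Sod2 followed none of the others, with r between -0.189 and 0.327.

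Among all genes on the array, the nearest in pattern to Cat over the 12 arrays were Tdo2 (r = 0.996), Acsm1 (r = 0.996) and Fabp1 (r = 0.995). Nearest to Gpx3 were B4galt5 (r = 0.995), Mboat1 (r = 0.993) and Fbln1 (r = 0.992), and nearest to Sod3 were Zc3h7b, Qrich2 and Tenm3 (r = 0.990 to 0.991). Sod1 was nearest to Pccb, Gcsh and Adra1b (each r = 0.989), Msra to Ecsit (r = 0.994), Emc7 and Coq9 (both r = 0.992), Gpx1 to Adh5 (r = 0.989), Gpx4 to Ell2 (r = 0.989) and Prdx6 to Esrrg (r = 0.960). Sod2 had the loosest neighbours, Tnfrsf11b (r = 0.929), Egfl7 (r = 0.904) and Adam9 (r = 0.815), and it is the gene whose variation rests mainly on tumor array 3.

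The enzymes work with a wider set of thioredoxin and glutathione genes, of which 31 of 31 listed were measured. In tumor 6 rose and 16 fell, beside 38.8% and 29.2% of all genes, with a median difference of -0.38 beside 0.07 for all genes. Gpx2, the peroxidase of gut epithelium, read 7.51, 9.32, 9.97 and 8.04 on the nontumor arrays and 12.59, 12.72, 13.10 and 12.91 on the tumor arrays. It rose by 4.12 ± 0.48 (17.4-fold, adjusted p = 1.2e-04, limma), more than any of the enzymes above. Like Gpx3 it was low in LEA (7.19) and in LEC at 4 weeks (7.16) and higher on the libraries labelled 26 and 39 weeks (9.63 and 9.27). The bile duct keratin Krt19 read 7.74, 9.08, 9.73 and 7.76 on the nontumor arrays and 12.95 to 13.04 on the tumor arrays, in nontumor liver high on the same arrays 2 and 3 as Gpx2. The part of bile duct cells in the Gpx2 values was not tested.

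Other rises in this list were Txnip, which binds and blocks thioredoxin (2.30 ± 0.18), Gpx8 of the endoplasmic reticulum (1.86 ± 0.13) and Prdx2 of the cytosol (0.86 ± 0.09). The peroxiredoxins thus split, since Prdx4 of the secretory pathway (-0.90 ± 0.09), Prdx3 of mitochondria (-0.60 ± 0.09) and Prdx5 (-0.38 ± 0.10) fell. So did Ccs, the chaperone that loads copper into Sod1 (-0.56 ± 0.10, adjusted p = 0.00117, limma). Its difference was -0.83 after quantile normalization again. Ccs read 10.35, 10.41, 10.27 and 10.16 in nontumor and 9.87, 9.51, 9.83 and 9.72 in tumor liver, without overlap.

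Several genes that make or regenerate glutathione and thioredoxin fell. Gclc (-1.76 ± 0.21) and Gclm (-1.29 ± 0.20), the subunits of the enzyme that limits glutathione synthesis, were lower in tumor, as were glutathione reductase, Gsr (-0.82 ± 0.14), and thioredoxin reductase, Txnrd1 (-0.53 ± 0.16). Gsr and Txnrd1 in tumor (8.93 to 9.38 and 10.76 to 11.13) lay near LEA (9.06 and 11.08) and LEC at 4 weeks (9.39 and 11.01). Nontumor liver stood above these, at 9.72 to 10.29 and 11.23 to 11.90. Gclc and Gclm in tumor (at most 10.08 and 9.88) lay below LEA (10.80 and 10.12) and LEC at 4 weeks (11.14 and 11.13). The methionine sulfoxide reductases Msrb1 (-1.23 ± 0.12) and Msrb2 (-1.17 ± 0.14) fell with Msra, while Msrb3 (0.46 ± 0.19, adjusted p = 0.062, limma) was not called. Its difference ranged from 0.16 after quantile normalization again (adjusted p = 0.44, limma) to 0.60 without nontumor array 2, where it was called (adjusted p = 0.0146, limma). Thioredoxin itself, Txn1, lay between 13.03 and 13.24 on all 12 arrays (0.03 ± 0.06 in tumor, adjusted p = 0.734, limma), a difference that turned to -0.15 after quantile normalization again. The selenium carrier Selenop was not called either (-0.16 ± 0.08, adjusted p = 0.111, limma). It was called at -0.26 after quantile normalization again or subtraction of the array medians, at -0.21 with array weights, and at -1.20 as the mean over its probe sets.

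Genes whose products make superoxide or hydrogen peroxide were measured for 21 of 29 listed, and 6 rose and 11 fell in tumor (median -0.37), again beside 38.8% and 29.2% of all genes. The falls were the larger, among them the peroxisomal oxidases Acox2 (-3.96 ± 0.91), Hao1 (-3.45 ± 0.74) and Hao2 (-3.35 ± 0.49) and the D-amino acid oxidase Dao (-3.35 ± 0.44), all of which share the peroxisome with catalase. Acox2 read 9.66, 8.12, 10.65 and 5.67 on tumor arrays 1 to 4, in the order of Cat. Its value on tumor array 4 and those of Hao2 on tumor arrays 2 and 4 (5.69 on array 4) lay within the range of the bacterial controls, so these falls have no exact size. Xanthine dehydrogenase, Xdh, fell by 0.37 ± 0.13 (adjusted p = 0.0381, limma), and this call was lost without nontumor array 2, 3 or 4 or tumor array 1, 2 or 4 (adjusted p from 0.0546 to 0.104).

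Genes of the NADPH oxidases went different ways. Nox1, a catalytic subunit, fell (-0.72 ± 0.12), while Duox2 (1.61 ± 0.31) and Noxo1 (0.68 ± 0.08) rose. Nox1 was dim, at 7.57 to 7.79 in nontumor and 6.83 to 7.29 in tumor liver. The markers Mb (-0.56 ± 0.09) and Myh7 (-0.64 ± 0.07), within the range of the bacterial controls on all arrays, were also called lower. Slc12a1 (-0.11 ± 0.08) and Camp (-0.04 ± 0.09), likewise within it, were not called. Falls near the size of that of Nox1 thus also occurred at control level. Ncf1, Ncf4 and Nox4 were not called, and Nox4 lay within the range of the bacterial controls on all tumor and nontumor arrays. Cyba, the membrane subunit shared by several of these oxidases, read 9.85, 10.07, 9.85 and 9.62 in nontumor and 11.77, 11.89, 11.69 and 11.82 in tumor liver. It rose by 1.94 ± 0.10 (adjusted p = 2.3e-06, limma). As the mean over its probe sets the difference was 0.75, so they did not rise alike. Its phagocyte partner Cybb (0.79 ± 0.14, and 0.51 after quantile normalization again) and the small GTPase Rac2 (1.28 ± 0.13) rose as well. Dao was the only gene of the 3 pathway lists that was called between nontumor LEC and LEA liver. In LEC liver at 4 weeks it already read 11.16, and it read 9.97 and 10.87 on the libraries labelled 26 and 39 weeks. It read 4.80 in LEA, within the range of the bacterial controls, and between 10.39 and 11.15 in nontumor LEC liver (adjusted p = 0.00771, limma).

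Gpx1, Gpx3 and Gpx4 need selenocysteine, and of 15 genes of selenoprotein synthesis and other selenoproteins 4 rose and 5 fell in tumor, beside 38.8% and 29.2% of all genes. Sephs2, which makes the selenium donor (-1.27 ± 0.15), and Sepsecs, which puts selenocysteine on its transfer RNA (-1.23 ± 0.18), fell. The selenoprotein Selenom rose (2.61 ± 0.11) and the thyroid hormone deiodinase Dio1 fell (-1.40 ± 0.19). All tumor values of Dio1 (5.01 to 5.23) and those of nontumor arrays 3 and 4 (6.18 and 6.20) lay within the range of the bacterial controls, so this fall has no exact size. The median of this list was 0.10, and -0.11 after quantile normalization again.

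**Figure D4:**
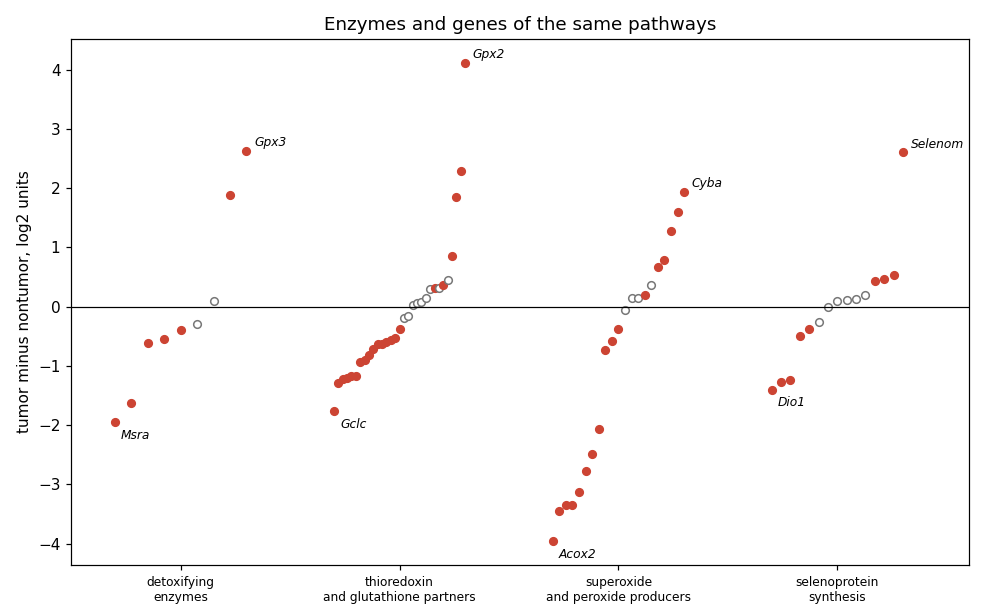
Tumor minus nontumor difference in log2 units for each measured gene of 4 groups, sorted within a group; filled red points have an adjusted p under 0.05 in limma and open points do not, and the outermost genes are named. The enzymes described first reach from -1.95 (Msra) to 2.63 (Gpx3), and the widest span is that from Acox2 (-3.96) to Cyba (1.94) among the producers.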

How the data were processed

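The authors deposited log2 values, computed by RMA with R 2.6.1 according to the submitters' processing notes, from 3 µg of total RNA per array per the labels' protocols. RMA removes background, forces the arrays to 1 distribution and combines the probes of a set, which can compress differences. It is not stated if all 12 arrays went through RMA together, and the main values were not scaled further. Groups came from the sample titles.

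Of 31099 probe sets, 57 controls were left out and 31042 tested. The platform annotation assigned 1 gene to 20826, several to 436 and none to 9780, and symbols were updated through Entrez identifiers (20758 matched). Each gene was represented by its probe set of highest mean, and probe sets of several genes, such as that of Prdx1, stayed unnamed. A single limma 3.58.1 fit of group means (lmFit and eBayes, R 4.3.3) to all arrays had 6 residual and 2.84 prior degrees of freedom and two-sided p-values. In simulations over 31042 probe sets, 200 of them changed, it called 154 for tumor against nontumor (5 false) and 123 for nontumor against LEA (2 false). Of 50 changed by 0.5 log2 units it found 14 and 1, and of 50 changed by 1 it found 38 and 23. The simulated noise was independent between probe sets, and far fewer changed than were called in tumor here. The counts of false calls therefore need not carry over.

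The enzymes, pathway lists and cell markers were chosen with earlier results of these data known. Pathway genes were named if they were among the 4 called genes of a list with the largest tumor difference or in a fixed set. Gclm, Msrb1, Msrb2, Msrb3, Rac2, Nox1, Ncf1, Ncf4, Nox4, Duox2 and Noxo1 were picked outside this rule with their values in view. So were the markers Apob, Krt19, Krt7, Mb, Myh7, Slc12a1 and Camp printed singly. The genes nearest in pattern were the 3 with the highest Pearson correlation, leaving out uncharacterized loci. Motifs other than TGACNNNGC were added after seeing the data. Alternatives covered scaling, filters, priors, weights, the samples fitted and each replicate left out. Figures were drawn with matplotlib 3.10.9 (Python 3.11.15).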

Additional observations from a re-analysis of the deposited data

Results flagged for a closer look

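Of 94 sets of 4 arrays examined (the enzymes, named pathway genes and marker medians, each in nontumor and in tumor liver), 5 had an array far from the other 3, and chance gives about 1 in 20. Tumor array 3 stood highest for the median of the macrophage markers (11.44, next 11.15) and of the neutrophil markers (8.24, next 7.11), and lowest for Txnip (12.99, next 13.53). Nontumor array 2 stood highest for Selenom (7.77, next 7.57), and nontumor array 1 lowest for Txn1 (13.14, next 13.17). None of the 9 enzymes met this criterion.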

How the results depend on the processing

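The 7 enzymes called between tumor and nontumor liver kept their direction and call under each other scaling, filter, prior, weighting and array left out. Leaving out groups of 1 array cannot change this comparison. Asking for 2-fold beside the adjusted p left 4 called enzymes, 9 of the thioredoxin and glutathione genes, 11 producers and 4 of the selenoprotein genes, beside 20.9% of all genes. Leaving out 1 array gave 0 to 1 called enzymes against LEA. Differences near 0 changed sign: for Sod2 in tumor -0.037 after quantile normalization again, -0.013 with array medians subtracted, -0.010 with array weights and -0.099 to 0.19 with 1 array left out. For Txn1 it was -0.15 and -0.078 under the first 2 of these, in alternatives chosen for the pathway genes after seeing the data. Against LEA, quantile normalization gave 0.017 for Sod1 and 0.0028 for Sod3, and leaving out 1 array gave -0.16 to 0.011 for Sod3 and -0.019 to 0.088 for Msra. The cause was not tested. Prdx6 was called in tumor in 6 of its alternatives. With the title number as a replicate block 8 enzymes were called (Prdx6 added, adjusted p = 0.0446, limma), and 9312 genes in place of 9658. Deviations of same-numbered arrays correlated at 0.054, 0.142, -0.082 and 0.142. Tumor arrays 1, 2 and 4 were each nearest to their own number, and tumor array 3 was not. The labels do not tie the numbers to pairs, so they were not taken as pairs, and these correlations do not settle it.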
